A study of Mus musculus with 22 samples.

Results

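The clustered protocadherins are cell-surface adhesion receptors of the cadherin superfamily, encoded in neighbouring alpha, beta and gamma clusters on mouse chromosome 18. The 58 windows described here were taken by gene symbol, as every Pcdha, Pcdhb and Pcdhg isoform among 24467 windows of 5000 bp, each centred on the annotated transcription start site (TSS) of 1 gene. They comprise 14 alpha, 22 beta and 22 gamma isoforms. Attention was drawn to these genes by the change of SUZ12 between cell types, so SUZ12 changes are given below as a description, with no p.

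Binding and histone marks were measured by CUT&RUN, in which a nuclease held at an antibody cuts out the DNA around the antibody's target, in neural progenitor cells (NPC) and in the embryonic stem cells (ESC) they were derived from. The cells were C57BL/6, and the labels give their genotype as untagged with Tir1 and their treatment as untreated in both cell types. To make NPC, bFGF (10 ng/mL) was given for 72 h, followed by 48 h of SAG (500 nM), a small molecule that switches on Hedgehog signalling. ESC were held in N2B27 medium with LIF at 100 U/mL, CHIR99021 at 3 µM and PD0325901 at 1 µM, which maintain naive pluripotency. There were 2 libraries per cell type for each of SUZ12, JARID2, MTF2, H3K27me3 and H3K4me3, stated to be biological replicates, and 1 IgG library per cell type as the background.

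In neurons, combinations of protocadherin isoforms bind the same combination on another membrane, which gives each neuron a surface identity used in dendrite self-avoidance and axon spacing. Each alternate isoform has its own first exon and promoter, and single neurons switch on a few of them through CTCF and cohesin, which loop a promoter to a distant enhancer. The C-type isoforms at the end of the alpha and gamma clusters (Pcdhac1, Pcdhac2, Pcdhgc3, Pcdhgc4 and Pcdhgc5) are expressed more uniformly, and the beta isoforms are each encoded by a single exon. SUZ12 is a core subunit of PRC2, the Polycomb complex that deposits H3K27me3, a mark of repressed chromatin. MTF2 and JARID2 mark different forms of the complex, PRC2.1 and PRC2.2, and H3K4me3 marks active or poised promoters.

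Levels are CPM, counts scaled to a library total of 1e+06 over the windows, and since all windows have the same width they can be compared between genes. Total counts over the windows were 298458 in the ESC IgG library, the shallowest, and up to 8425292 in an NPC H3K4me3 library, and 3 counts were worth 10.05 CPM at the lowest depth and 0.356 CPM at the highest. Marker genes moved with the cell-type labels. H3K4me3 rose at 8 of 8 neural progenitor genes and fell at 7 of 8 naive pluripotency genes, and Sox1 averaged 128 ± 3.44 CPM in NPC and 53.4 ± 2.17 CPM in ESC, while Nanog averaged 12.5 ± 3.81 CPM in NPC and 296 ± 4.71 CPM in ESC (SD, n = 2 each). The list of other-lineage genes, which also held the neuronal genes Elavl4 and Tubb3, was mixed, with H3K4me3 up at 3 and down at 5 of 9. The replicates of NPC H3K27me3 stood apart from each other, with 11.04% and 19.6% of counts in the most covered 1% of windows and a chi-square per degree of freedom of 6.67, against 1.23 for the ESC pair. The NPC JARID2 pair differed by no more than sampling noise (0.998). It was kept as 2 libraries because the ESC JARID2 and NPC SUZ12 pairs, at 1.02 and 1.03, were close to that as well, and summing it to 1 library left the JARID2 count given below at 11.

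All 58 start sites lie on the plus strand and span 889.3 kb of mm10, with the alpha TSSs from position 36930285 (Pcdha1) to 37143969 (Pcdhac2), the beta TSSs from 37264998 (Pcdhb1) to 37518353 (Pcdhb22) and the gamma TSSs from 37661945 (Pcdhga1) to 37819546 (Pcdhgc5). RefSeq lists 57 of the genes as protein coding, and Pcdhgb8 is a transcribed pseudogene. The files' TSS was the RefSeq gene start at 42 of them and lay within 300 bp of it at all 58. Neighbouring first exons are close enough that 20 windows overlap another window, and 3 of these (Pcdha4, Pcdha6 and Pcdha7) overlap a predicted gene. The isoforms are also similar in sequence, and how reads that map to several places were counted is not given in the sources used here.

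PRC2 subunits took a smaller share of their counts from the clusters in NPC than in ESC. The members held 0.223% and 0.221% of SUZ12 counts in the NPC libraries, against 0.687% and 0.598% in the ESC libraries. For MTF2 the shares were 0.207% and 0.209% in NPC, against 0.556% and 0.454% in ESC. JARID2 gave 0.210% and 0.221% in NPC, against 0.351% and 0.340% in ESC. With IgG the same windows took 0.203% of counts in NPC and 0.221% in ESC, and the NPC shares of all PRC2 subunits were near the IgG share. The most covered 1% of windows held 4.94% and 5.05% of SUZ12 counts in NPC, against 10.52% and 9.24% in ESC. For MTF2 they held 3.05% and 7.02% in NPC, against 10.54% and 8.44% in ESC. For JARID2 they held 2.63% and 2.57% in NPC, against 4.01% and 4.22% in ESC. IgG gave 2.22% in NPC and 2.50% in ESC. Counts of each PRC2 subunit were thus less concentrated in NPC. The part of this in the lower member levels was not tested. In bulk samples, fewer cells with a bound or marked promoter and less signal per cell cannot be told apart.

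**Figure D1:**
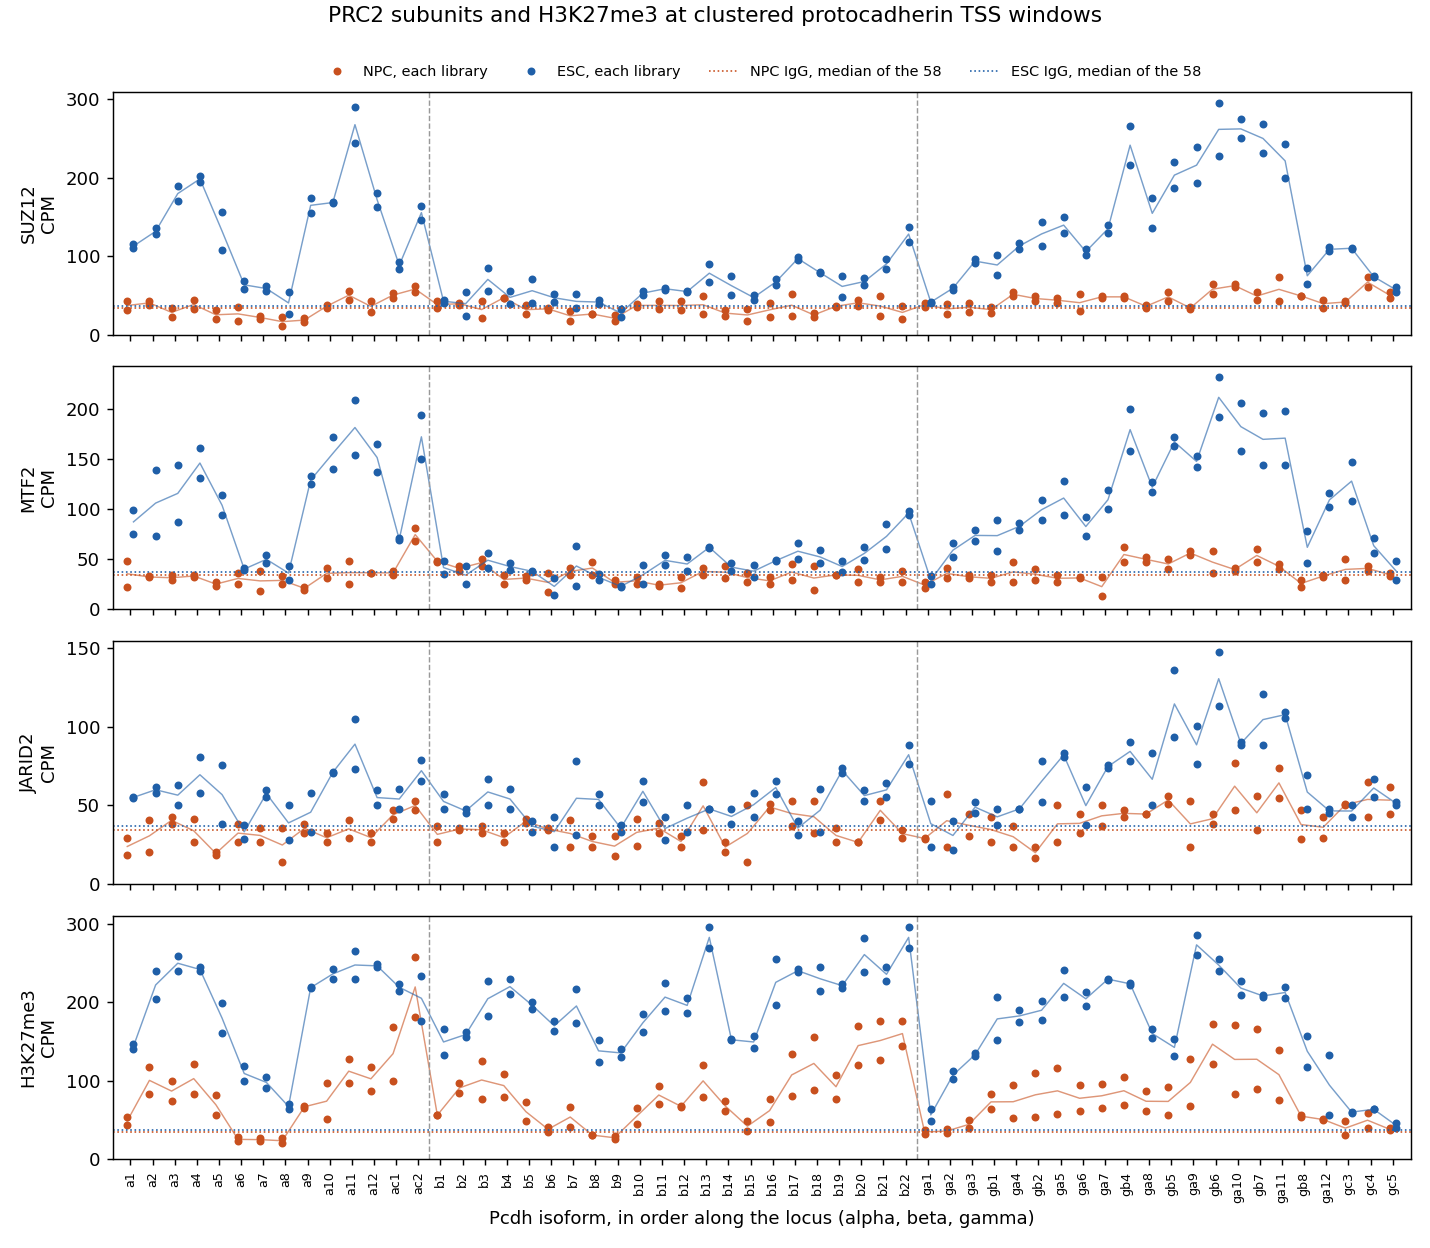
CPM of SUZ12, MTF2, JARID2 and H3K27me3 at the 58 windows in order along the locus, with NPC libraries in orange and ESC libraries in blue (points: libraries; lines: means; dotted lines: median IgG CPM of the 58 windows per cell type; dashed lines: cluster borders). In NPC the SUZ12, MTF2 and JARID2 points lie near the IgG lines, while in ESC SUZ12 reaches 267 CPM at Pcdha11 and H3K27me3 reaches 283 CPM at Pcdhb13.

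In ESC, SUZ12 was high over the alpha and gamma clusters and lower over the beta cluster. The median member stood at percentile 44.2 of all windows in NPC and at percentile 93.5 in ESC, and the cluster medians in ESC stood at percentiles 97.1 for alpha, 85.5 for beta and 96.2 for gamma. By cluster, mean SUZ12 levels had medians of 36.0 CPM in NPC and 144 CPM in ESC for alpha, 34.4 CPM in NPC and 57.2 CPM in ESC for beta, and 47.0 CPM in NPC and 121 CPM in ESC for gamma. The highest member was Pcdha11, an alternate alpha isoform, with 55.8 and 44.6 CPM in the NPC libraries, against 290.3 and 244 CPM in the ESC libraries. The lowest ESC level was that of Pcdhb9, at 17.2 and 24.5 CPM in NPC, against 32.6 and 22.2 CPM in ESC. The ranges of NPC and ESC were far apart at Pcdha11 and overlapped at Pcdhb9.

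The alpha cluster had a gap in this pattern at Pcdha6, Pcdha7 and Pcdha8, picked out after their values were seen. Their SUZ12 means were 26.4, 21.8 and 16.5 CPM in NPC and 63.4, 58.7 and 40.4 CPM in ESC, where the other alternate alpha isoforms lay between 113 and 267 CPM. H3K27me3 was also low there, at 24.8, 24.4 and 23.0 CPM in NPC and 109, 97.5 and 66.8 CPM in ESC. IgG at the 3 windows was 26.95, 20.96 and 26.95 CPM in NPC and 53.6, 26.8 and 40.2 CPM in ESC, the last on few reads since the ESC IgG library held 3 to 19 counts per member window.

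The SUZ12 change was negative at all 58 members, with medians on the log2 scale of NPC over ESC of -2.21 for alpha, -1.11 for beta and -1.75 for gamma, against 0.07 over all 21238 windows tested. At an adjusted p below 0.05, 48 members were lower in NPC (14 alpha, 15 beta and 19 gamma), where 13.1% of all windows were, and none was higher, where 2.97% were; these counts only describe the choice of the genes, and nothing is read from them. Pcdha9 had the lowest value of any tested window, at -3.39 ± 0.30 (SE), with 21.5 and 15.6 CPM in NPC, against 174 and 155 CPM in ESC. The lowest gamma value was that of Pcdhga9, at -2.93 ± 0.27, and the lowest beta value that of Pcdhb22, the last gene of its cluster, at -2.43 ± 0.28. The values nearest 0 were -1.05 ± 0.25 at Pcdhac1 in alpha, -0.32 ± 0.28 at Pcdhb4 in beta and -0.37 ± 0.32 at Pcdhga1 in gamma. Both NPC libraries lay below both ESC libraries at 52 members, as at 16% of all windows, and above at none, as at 42.4% of all windows. The cell types overlapped at the other 6.

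MTF2, the PRC2.1 subunit, was likewise high over alpha and gamma in ESC and lower in NPC. Its cluster medians were 32.9 CPM in NPC and 111 CPM in ESC for alpha, 32.4 CPM in NPC and 43.1 CPM in ESC for beta, and 36.7 CPM in NPC and 109.5 CPM in ESC for gamma. It fell at 41 of the 58 members (12 alpha, 9 beta and 20 gamma), where 8.89% of all tested windows fell, and rose at none, where 3.28% rose. No member had an unadjusted p below 0.05 for a rise by the edgeR test, and DESeq2 called none either. The medians were -2.12 for alpha, -0.63 for beta and -1.74 for gamma, against 0.07 over all tested windows. The NPC libraries lay below the ESC libraries at 45 members (16.3% of all windows), above at Pcdhb9 alone (43.6% of all windows), which did not pass the test, and overlapped at 12.

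Pcdha9 again had the lowest MTF2 value of the members. It had 22.8 and 19.3 CPM in NPC, against 133 and 125 CPM in ESC, and its change was -2.89 ± 0.43 (adjusted p = 8.05e-08). The NPC and ESC libraries did not overlap and the ESC replicates were close to each other. Pcdhgb6, a gamma B isoform, had the highest ESC level, with 36.4 and 58.02 CPM in NPC, against 232 and 192 CPM in ESC (change -2.43 ± 0.59, adjusted p = 0.00228). Pcdhga7 had the lowest gamma value (-2.59 ± 0.40, adjusted p = 2.79e-07). In the beta cluster the lowest value was that of Pcdhb22, at -1.80 ± 0.36 (adjusted p = 0.000284), and the highest was that of Pcdhb8, at 0.03 ± 0.34 (adjusted p = 0.963). The highest alpha and gamma values were those of Pcdha6, at -0.65 ± 0.34, and Pcdhga1, at -0.52 ± 0.40, and neither passed the test. The count of falls depended on single libraries: it was 15 without NPC replicate 1 and 19 without ESC replicate 1, against 41 in full. The NPC MTF2 replicates also stood apart, with 3.05% and 7.02% of counts in the most covered 1% of windows. DESeq2 gave an adjusted p to 26 of the 58 members and called all 26. At Pcdhb22 the call was lost without NPC replicate 1 (adjusted p = 0.0779).

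JARID2, the PRC2.2 subunit, was nearer the IgG level. Its cluster medians were 31.6 CPM in NPC and 56.6 CPM in ESC for alpha, 32.5 CPM in NPC and 51.4 CPM in ESC for beta, and 40.8 CPM in NPC and 63.1 CPM in ESC for gamma. It fell at 11 members (3 alpha, 2 beta and 6 gamma), where 0.75% of all tested windows fell, and rose at none, where 0.0792% rose. By the edgeR test an unadjusted p below 0.05 was found for 28 falls and no rise, and DESeq2 called no rise. Both NPC libraries lay below both ESC libraries at 40 members (17.9% of all windows) and above at Pcdhgc3 alone (19.8%). The medians were -0.90, -0.65 and -0.61 for alpha, beta and gamma, against 0.01 over all tested windows. The largest fall was at Pcdhgb2, with 16.2 and 23.6 CPM in NPC, against 78.0 and 52.3 CPM in ESC (-1.76 ± 0.38, adjusted p = 0.00178). Pcdhgb6 had the highest ESC level, with 44.7 and 38.3 CPM in NPC, against 113 and 147 CPM in ESC, and fell by 1.66 on the log2 scale (SE 0.28, adjusted p = 1.33e-05). At both genes the NPC libraries lay below the ESC libraries. Pcdha5 (-1.56 ± 0.39, adjusted p = 0.0179) and Pcdhb22 (-1.35 ± 0.31, adjusted p = 0.00583) had the lowest alpha and beta values. The highest were those of Pcdha6 (-0.10 ± 0.39), Pcdhb17 (0.26 ± 0.35) and Pcdhga2 (0.47 ± 0.38), none of which passed the test.

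The 11 JARID2 falls were read from few counts, since the median member window held 17.5 and 12 counts in the NPC libraries and 22 and 22 in the ESC libraries. DESeq2 gave an adjusted p to 5 of the 58 members and called 1. The number of falls was 3 without NPC replicate 1, 5 without NPC replicate 2, 3 without ESC replicate 1 and 6 without ESC replicate 2. The call at Pcdhgb2 was lost without NPC or ESC replicate 1 (adjusted p = 0.196 and 0.175), and those at Pcdha5 and Pcdhb22 were kept only without ESC replicate 2.

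Against IgG of the same cell type, a window was called when its log2 fold was at least 1 at an adjusted p below 0.05. The fold came from a fit that scales libraries by the trimmed mean of M-values, so it is not the ratio of CPM values. For H3K27me3 in NPC the median member had 73.5 CPM, against 34.4 CPM of IgG, while the median fitted log2 fold was 2.16. In NPC no member was called for SUZ12, JARID2 or MTF2, and neither was any other window (0% of 23836 tested). At an unadjusted p below 0.05 the edgeR test gave 2, 0 and 2 members past that fold. In ESC, 28 members were called for SUZ12 (11 alpha, 3 beta and 14 gamma), where 5.67% of all windows were. SUZ12 in ESC is part of the change by which the genes were noticed, so SUZ12 counts over IgG only describe them. MTF2 was called at 24 in ESC (10 alpha, 1 beta and 13 gamma), where 9.1% of all windows were, and each of these was among the 28 with SUZ12. JARID2 was called at none in ESC, as at no window at all (0%), with 14 members past the fold at an unadjusted p below 0.05. The beta isoforms called for SUZ12 were Pcdhb8, Pcdhb14 and Pcdhb21. Pcdhb8 had 25.8 and 26.7 CPM of SUZ12 in NPC, against 38.5 and 44.4 CPM in ESC, the ESC levels below the beta median of 57.2 CPM, over 13.4 CPM of IgG, the lowest of the beta cluster. These calls rest on 1 IgG library per cell type, and with the IgG of both cell types together 45 members were called for SUZ12 in ESC.

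H3K27me3, the product of PRC2, was above IgG over most of the locus in NPC and nearly all of it in ESC. It was called above IgG at 47 members in NPC (11 alpha, 18 beta and 18 gamma), where 15.1% of all windows were. In ESC 56 were called (14 alpha, 22 beta and 20 gamma), where 22.5% of all windows were, and the exceptions were Pcdhgc4 and Pcdhgc5. The median member stood at percentile 90.1 of all windows in NPC and at percentile 98.0 in ESC. The members not called in NPC were Pcdha6, Pcdha7, Pcdha8, Pcdhb6, Pcdhb8, Pcdhb9, Pcdhb15, Pcdhga1, Pcdhga2, Pcdhgc3 and Pcdhgc5.

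Since no window of the table was called for SUZ12 in NPC, the 2 calls could be set side by side in ESC alone. There 28 of the 56 windows with H3K27me3 had SUZ12 called and 28 did not (19 beta, 6 gamma and 3 alpha isoforms), that is 50% without it, against 80.3% of the 5358 such windows in the whole table. With the IgG of both cell types together the number without SUZ12 was 11 (8 beta, 2 gamma and 1 alpha isoform), or 19.6%, against 69.6% in the whole table. The number of beta isoforms called for SUZ12 in ESC was then 14, against 3 with the IgG of ESC alone. The member shares rest on SUZ12 in ESC, part of the change by which the genes were noticed, so nothing is read from them. Pcdhb13 and Pcdhb22, both beta genes, shared the highest mean H3K27me3 level in ESC, 283 CPM. Pcdhb13 had 78.7 and 120 CPM in NPC, against 269 and 296 CPM in ESC. SUZ12 at Pcdhb13 was 49.4 and 26.7 CPM in NPC, against 89.8 and 66.6 CPM in ESC. Across the 58 windows, Spearman's rho between SUZ12 and H3K27me3 means was 0.43 in NPC and 0.52 in ESC, and between SUZ12 and MTF2 it was 0.39 in NPC and 0.97 in ESC. These are descriptions: the windows share libraries, some overlap, and rho between SUZ12 and IgG was 0.24 in NPC and 0.24 in ESC.

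**Figure D2:**
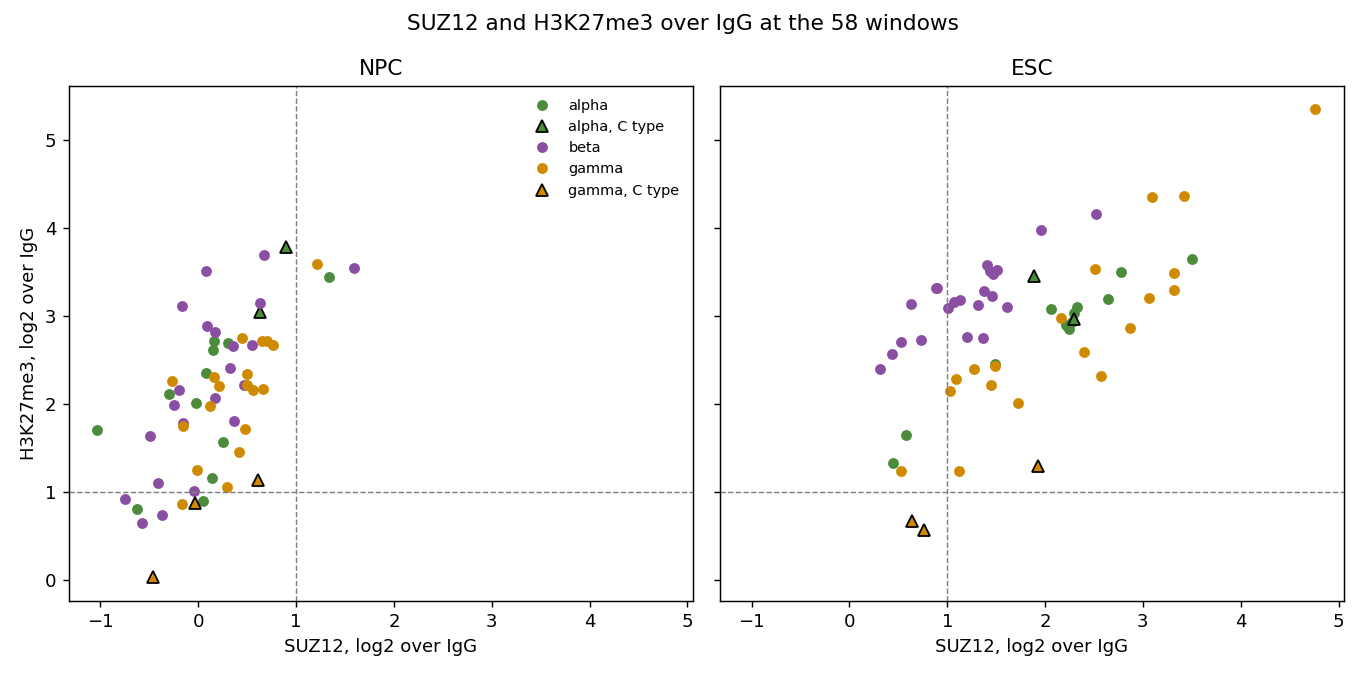
Log2 over IgG of SUZ12 (horizontal) and H3K27me3 (vertical) at the 58 windows, NPC left and ESC right, coloured by cluster with C-type isoforms as triangles and dashed lines at 1. In NPC the SUZ12 values centre near 0.17 while the H3K27me3 median is 2.16. In ESC the beta genes lie high in H3K27me3 with lower SUZ12 than most alpha and gamma genes.

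H3K27me3 levels were lower in NPC across the locus, but the fall passed the test at only 16 members (5 alpha, 9 beta and 2 gamma), where 23.5% of all tested windows fell. None rose, where 22.9% did; none had an unadjusted p below 0.05 for a rise, and DESeq2 called none. The share of members that fell was thus near that of all windows. The medians were -1.17, -1.14 and -0.86 for alpha, beta and gamma, against 0.12 over all tested windows. In CPM, both NPC libraries lay below both ESC libraries at 57 members, where 34.1% of all windows did, and the exception was Pcdhac2.

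The largest H3K27me3 fall was at Pcdhb9, with 28.8 and 24.8 CPM in NPC, against 141 and 130 CPM in ESC (-2.13 ± 0.46, adjusted p = 4.88e-05). Pcdha6 fell by 1.87 on the log2 scale (SE 0.40, adjusted p = 4.24e-05), with 22.2 and 27.4 CPM in NPC, against 119 and 98.8 CPM in ESC. Pcdhga2 had the largest gamma fall, at -1.35 ± 0.41 (adjusted p = 0.00419), a call that was lost without ESC replicate 1 (adjusted p = 0.209) or ESC replicate 2 (adjusted p = 0.0826). These genes lay near the IgG level in NPC, where the median member had 34.4 CPM of IgG. Pcdhb22 had the highest beta level in NPC, with 144 and 176 CPM in NPC, against 269 and 296 CPM in ESC, and its change of -0.56 ± 0.80 did not pass the test (adjusted p = 0.578). Pcdhgb6 had the highest gamma level in NPC, with 121 and 172 CPM in NPC, against 240.3 and 255 CPM in ESC (-0.47 ± 0.76, adjusted p = 0.623). At both genes the NPC libraries were below the ESC libraries, and the error of the change was larger than the change itself. Pcdha3 and Pcdhga9 had the highest ESC levels of their clusters, with means of 86.5 and 97.5 CPM in NPC and 250 and 273 CPM in ESC. Neither change passed the test (-1.25 ± 0.70 and -1.16 ± 0.74).

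The number of H3K27me3 falls turned on single libraries and on scaling. It was 55 without NPC replicate 2, 29 without NPC replicate 1, 4 without ESC replicate 1 and 5 without ESC replicate 2. Scaling by library totals in place of the trimmed mean of M-values (TMM) gave 46. The cluster medians were below 0 under every scaling tried.

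**Figure D3:**
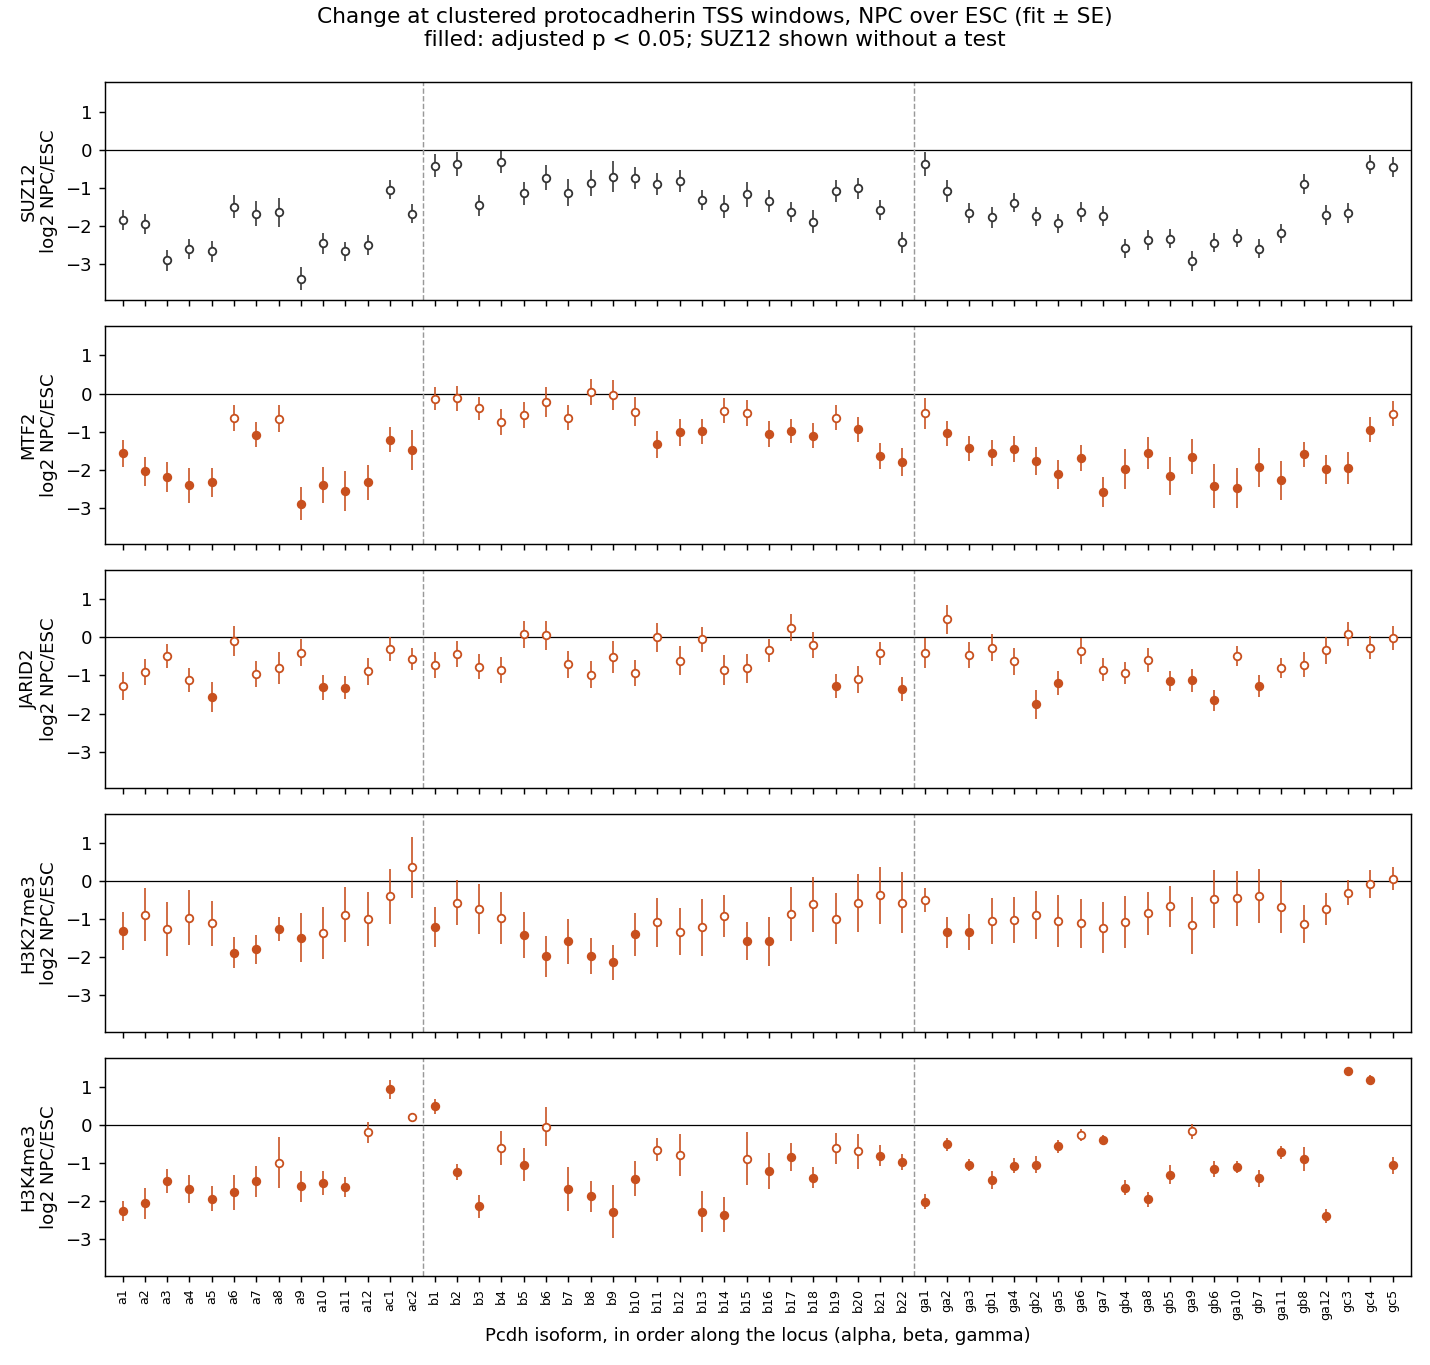
Log2 change of NPC over ESC with its SE at the 58 windows for SUZ12, MTF2, JARID2, H3K27me3 and H3K4me3, in order along the locus (filled: adjusted p below 0.05; SUZ12 is drawn open throughout because it is shown without a test). MTF2 falls fill most of alpha and gamma (12 of 14 and 20 of 22), H3K27me3 falls are most numerous in beta (9 of 22), and H3K4me3 is above 0 at 3 C-type isoforms and Pcdhb1 among the filled points.

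H3K4me3 was low over the clusters in both cell types, with the median member at percentile 39.0 of all windows in NPC and at percentile 40.8 in ESC. Above IgG it was called at 2 members in NPC, Pcdhac2 and Pcdhgc3, where 38.9% of all windows were, and at none in ESC, where 36% were. By the edgeR test no member passed the fold in ESC at an unadjusted p below 0.05 either. Pcdhac2 in NPC was the only member called for H3K4me3 and H3K27me3 in the same cell type. The TMM-scaled log2 ratio to IgG had a median of -1.42 over the 58 windows in NPC. In CPM the median member had 6.41 of H3K4me3 and 34.4 of IgG in NPC. Most members held a smaller share of the H3K4me3 counts than of the IgG counts.

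At these low levels H3K4me3 fell at 42 members (10 alpha, 14 beta and 18 gamma), where 29.2% of all tested windows fell, and rose at 4, where 26.7% rose. The medians were -1.56, -1.004 and -1.05 for alpha, beta and gamma, against -0.02 over all tested windows. Both NPC libraries lay below both ESC libraries at 46 members (31.2% of all windows) and above at 5 (35.6%). The largest fall was at Pcdhga12, the last alternate gamma isoform, with 6.13 and 6.88 CPM in NPC, against 37.3 and 30.9 CPM in ESC (-2.40 ± 0.18, adjusted p = 4.62e-38). Pcdha1, the first gene of the locus, had 4.60 and 3.56 CPM in NPC, against 17.1 and 20.2 CPM in ESC (-2.25 ± 0.27, adjusted p = 1.03e-15). Pcdhb14 had the largest beta fall, with 2.14 and 2.02 CPM in NPC, against 11.5 and 9.11 CPM in ESC (-2.35 ± 0.46, adjusted p = 9.68e-07), a call that was lost without ESC replicate 1 (adjusted p = 0.0817). The libraries of the cell types did not overlap at any of these genes. Pcdhb2 and Pcdhga7 had the highest ESC levels of the beta and alternate gamma isoforms. Pcdhb2 averaged 7.87 CPM in NPC and 19.3 CPM in ESC, and Pcdhga7 averaged 28.5 CPM in NPC and 35.5 CPM in ESC. The fall at Pcdhga7 (-0.39 ± 0.12, adjusted p = 0.00366) turned sign with TMM factors from background windows (0.06, adjusted p = 0.920). The count of falls was 26 with TMM factors from background windows and 23 without ESC replicate 1.

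**Figure D4:**
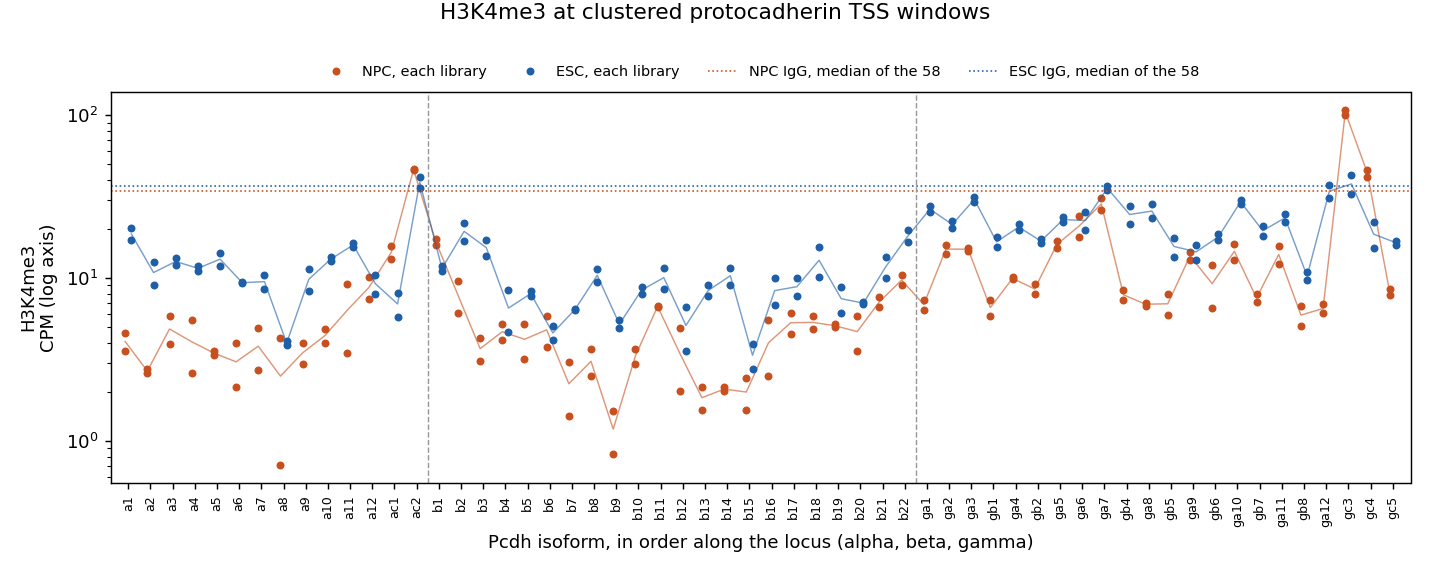
H3K4me3 CPM (log axis) at the 58 windows in order along the locus, NPC in orange and ESC in blue (points: libraries; lines: means; dotted lines: median IgG CPM of the 58 windows per cell type). Pcdhgc3 at 104 CPM, Pcdhac2 at 46.4 CPM and Pcdhgc4 at 44.0 CPM stand out in NPC, and most alternate isoforms lie lower in NPC than in ESC.

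The genes where H3K4me3 rose were Pcdhac1, Pcdhgc3 and Pcdhgc4, which are C types, and Pcdhb1, the first beta gene, which stands 29.8 kb before the next. Pcdhgc3, which in mouse promotes dendrite branching of cortical neurons, had 100.5 and 108 CPM in NPC, against 42.7 and 32.9 CPM in ESC (1.42 ± 0.09, adjusted p = 1.51e-50). Pcdhgc4, needed in mouse for the survival of cortical interneurons, had 42.0 and 45.9 CPM in NPC, against 21.99 and 15.2 CPM in ESC (1.18 ± 0.13, adjusted p = 3.19e-19). Pcdhac1 had 15.6 and 13.2 CPM in NPC, against 8.07 and 5.80 CPM in ESC (0.94 ± 0.25, adjusted p = 0.000476). At all 3 the NPC libraries were above the ESC libraries. Pcdhb1 had 17.5 and 16.0 CPM in NPC, against 11.9 and 11.05 CPM in ESC (0.50 ± 0.20, adjusted p = 0.0283), and this call was lost with DESeq2 (adjusted p = 0.177), with no filter on low counts (0.0806), and without NPC replicate 2 (0.0706), ESC replicate 1 (0.0667) or ESC replicate 2 (0.154). The other 3 calls were kept under every alternative run for them.

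Among the other C types, Pcdhac2, which in mouse spaces the axon branches of serotonergic neurons, had 46.6 and 46.2 CPM of H3K4me3 in NPC, against 41.6 and 35.9 CPM in ESC, a change of 0.22 ± 0.11 that did not pass the test (adjusted p = 0.0713) although the libraries did not overlap. It passed without NPC replicate 1 (adjusted p = 0.0248) and with library totals (0.0455). Pcdhgc5 fell, with 8.58 and 7.83 CPM in NPC, against 16.9 and 16.0 CPM in ESC (-1.05 ± 0.23, adjusted p = 1.24e-05), a call that was lost with TMM factors from background windows (-0.60). The C types thus spanned a rise and a fall on neighbouring promoters 4.467 kb apart, since Pcdhgc4 and Pcdhgc5 are adjacent and their windows overlap.

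PRC2 levels varied among the C types. SUZ12 at Pcdhac2 was 53.7 and 62.4 CPM in NPC, against 164 and 146 CPM in ESC, and at Pcdhgc3 it was 42.9 and 40.1 CPM in NPC, against 111 and 109 CPM in ESC. At Pcdhgc4 and Pcdhgc5 the SUZ12 means were 66.8 and 50.2 CPM in NPC and 73.7 and 57.2 CPM in ESC. The Pcdhgc4 libraries of the cell types overlapped. MTF2 fell at Pcdhac1 (-1.21 ± 0.33, adjusted p = 0.00695), Pcdhac2 (-1.49 ± 0.53, adjusted p = 0.0439), Pcdhgc3 (-1.95 ± 0.42, adjusted p = 0.000629) and Pcdhgc4 (-0.95 ± 0.32, adjusted p = 0.034). At Pcdhgc5 the MTF2 change was -0.53 ± 0.33 (adjusted p = 0.294). These calls depended on single libraries: without NPC replicate 1 all 4 were lost (adjusted p = 0.170, 0.209, 0.0923 and 0.213), without NPC replicate 2 those of Pcdhac2 and Pcdhgc4, without ESC replicate 1 those of Pcdhac1, Pcdhac2 and Pcdhgc4, and without ESC replicate 2 that of Pcdhac2. None of the 5 passed the JARID2 test.

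H3K27me3 passed the test at no C type. Pcdhac2 had the highest level of all members in NPC, with 182 and 257 CPM in NPC, against 234 and 176 CPM in ESC, and its change was 0.37 ± 0.80 (adjusted p = 0.722), which became a rise of 0.82 without NPC replicate 1 (adjusted p = 0.000541). The cell types overlapped at this gene. Pcdhac1 had 99.8 and 169 CPM in NPC, against 214 and 224 CPM in ESC (-0.40 ± 0.72, adjusted p = 0.668). Pcdhgc3, Pcdhgc4 and Pcdhgc5 were low in H3K27me3 in both cell types, with means of 39.2, 49.3 and 37.7 CPM in NPC and 59.6, 63.2 and 42.8 CPM in ESC. Their changes were -0.30 ± 0.33, -0.07 ± 0.36 and 0.07 ± 0.31. Of the C types, H3K27me3 was called above IgG in NPC at Pcdhac1, Pcdhac2 and Pcdhgc4, and in ESC at Pcdhac1, Pcdhac2 and Pcdhgc3. Pcdhgc4 had 39.9 and 58.6 CPM of H3K27me3 in NPC, against 46.4 CPM of IgG. Pcdhgc3 had 59.0 and 60.2 CPM in ESC, against 36.9 CPM of IgG. These 2 calls were made with TMM scaling, and a log2 fold of 1 is not reached in CPM.

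Along the alternate gamma isoforms, PRC2 levels in ESC were higher towards the 3′ end. The 9 isoforms from Pcdhga1 to Pcdhga7 had a median SUZ12 mean of 40.7 CPM in NPC and 106 CPM in ESC, and the 10 from Pcdhgb4 to Pcdhga12 had 48.6 CPM in NPC and 218 CPM in ESC. The corresponding MTF2 medians were 31.4 CPM in NPC and 82.8 CPM in ESC for the first 9, and 46.3 CPM in NPC and 169 CPM in ESC for the last 10. JARID2 gave 37.3 CPM in NPC and 48.8 CPM in ESC for the first 9, and 44.6 CPM in NPC and 88.8 CPM in ESC for the last 10. The last members of the row, Pcdhgb8 and Pcdhga12, broke the order with SUZ12 means of 49.2 and 39.5 CPM in NPC and 74.9 and 109 CPM in ESC. Spearman's rho between position and level over the 19 isoforms was 0.54 in NPC and 0.57 in ESC for SUZ12. In ESC it was 0.61 for MTF2, 0.61 for JARID2 and 0.24 for IgG. Over the 10 whose windows overlap no other, it was 0.93 in ESC for SUZ12, 0.92 for MTF2 and 0.94 for JARID2, and -0.28 for IgG. Those 10 end at Pcdhgb6, so they leave out Pcdhgb8 and Pcdhga12, which broke the order. These rho values describe neighbouring windows of the same libraries.

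Gamma A and gamma B isoforms alternate along this stretch. The 12 gamma A isoforms had a median SUZ12 mean of 40.1 CPM in NPC and 124 CPM in ESC, and the 7 gamma B isoforms 48.1 CPM in NPC and 203 CPM in ESC. H3K4me3 was in the opposite order, with 14.3 CPM in NPC and 24.6 CPM in ESC for gamma A, and 7.54 CPM in NPC and 16.8 CPM in ESC for gamma B. It fell at 10 of 12 gamma A and at 7 of 7 gamma B isoforms. The types are not evenly placed along the row, and their part in these values apart from position was not tested.

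In the beta cluster the ESC medians of SUZ12 and MTF2 were higher over the last genes than over the first, and that of JARID2 was not. The first 11 genes, Pcdhb1 to Pcdhb11, had a median SUZ12 mean of 32.8 CPM in NPC and 46.9 CPM in ESC, and the last 11, Pcdhb12 to Pcdhb22, had 36.1 CPM in NPC and 67.6 CPM in ESC. The MTF2 medians were 31.2 CPM in NPC and 38.0 CPM in ESC for the first 11, and 33.0 CPM in NPC and 52.4 CPM in ESC for the last 11. Those of JARID2 were 32.8 CPM in NPC and 52.4 CPM in ESC for the first 11, and 32.1 CPM in NPC and 50.3 CPM in ESC for the last 11. MTF2 fell at 1 of the first 11 and at 8 of the last 11, where 8.89% of all tested windows fell. H3K27me3 fell at 7 of the first 11 and at 2 of the last 11, where 23.5% of all tested windows fell. These counts were not steady. Over the whole beta cluster, library totals gave 3 MTF2 and 19 H3K27me3 falls, and a replicate block gave 3 and 3. The H3K27me3 medians were 55.7 CPM in NPC and 174 CPM in ESC for the first 11, and 99.5 CPM in NPC and 230.04 CPM in ESC for the last 11. IgG medians of the same windows were 31.4 CPM in NPC and 30.2 CPM in ESC for the first 11, and 29.9 CPM in NPC and 36.9 CPM in ESC for the last 11. Over the 22 beta genes rho with position in ESC was 0.70 for SUZ12, 0.64 for MTF2, 0.35 for JARID2 and 0.61 for H3K27me3, and 0.42 for IgG. Over the 16 whose windows overlap no other it was 0.52, 0.40, 0.11 and 0.39 in the same order, and 0.54 for IgG. The part of IgG in these values was not tested. Among the 12 alternate alpha isoforms rho with position in ESC was 0.24 for SUZ12, 0.46 for MTF2 and 0.16 for H3K27me3, and 0.33 for IgG. Over the 9 whose windows overlap no other it was 0.58 for SUZ12, 0.73 for MTF2 and 0.40 for H3K27me3, and 0.48 for IgG. Those 9 leave out Pcdha4 and the low isoforms Pcdha6 and Pcdha7.

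Whether the measured change differed between the accessory subunits was tested as an interaction over their 8 libraries. JARID2 minus MTF2 change was higher than 0 at 7 members, where 2.78% of all windows were higher, and lower at none, where 0.662% were lower; 23 members were higher and none lower at an unadjusted p below 0.05. The 7 were Pcdha3, Pcdha9, Pcdhga2, Pcdhga7, Pcdhga10, Pcdhga12 and Pcdhgc3. The median difference was 1.08 for alpha, -0.02 for beta and 1.04 for gamma, against 0.01 over all windows. At Pcdha9, JARID2 was 32.5 and 38.3 CPM in NPC, against 57.9 and 33.3 CPM in ESC, a change of -0.40 ± 0.35 with overlapping libraries, while MTF2 fell by 2.89. The difference was 2.57 ± 0.56 (adjusted p = 0.00353). At Pcdhgc3, JARID2 was 50.8 and 50.1 CPM in NPC, against 42.8 and 50.0 CPM in ESC, and MTF2 was 29.6 and 50.3 CPM in NPC, against 148 and 109 CPM in ESC, with a difference of 2.12 ± 0.53 (adjusted p = 0.0105). The count of 7 was not steady: it was 0 without NPC JARID2 replicate 1 or ESC JARID2 replicate 2, 1 without ESC JARID2 replicate 1, 2 without NPC JARID2 replicate 2, NPC MTF2 replicate 1 or ESC MTF2 replicate 1, 4 without NPC MTF2 replicate 2 and 16 without ESC MTF2 replicate 2. JARID2 was not called above IgG in either cell type.

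The same test between the histone marks gave H3K4me3 minus H3K27me3 change above 0 at 5 members, where 17.4% of all windows were, and below 0 at 2, where 17.4% were. The 5 were Pcdhac1 (1.56 ± 0.54, adjusted p = 0.0156), Pcdhb1 (1.90 ± 0.47, adjusted p = 0.000525), Pcdhb6 (2.103 ± 0.52, adjusted p = 0.000548), Pcdhgc3 (1.92 ± 0.53, adjusted p = 0.00197) and Pcdhgc4 (1.46 ± 0.47, adjusted p = 0.00847). At Pcdhb6 H3K4me3 was 5.82 and 3.80 CPM in NPC, against 5.06 and 4.14 CPM in ESC, and H3K27me3 was 41.0 and 34.4 CPM in NPC, against 176 and 164 CPM in ESC. The H3K4me3 libraries overlapped there while those of H3K27me3 did not. The 2 below 0 were Pcdhga1 (-1.30 ± 0.46, adjusted p = 0.0186) and Pcdhga12 (-1.46 ± 0.47, adjusted p = 0.00933), which hold the ends of the alternate gamma row. At Pcdhga1 H3K4me3 was 7.35 and 6.41 CPM in NPC, against 27.5 and 25.4 CPM in ESC, with H3K27me3 of 32.1 and 36.3 CPM in NPC, against 64.2 and 47.9 CPM in ESC. Leaving out single libraries gave 2 (ESC H3K4me3 replicate 2), 3 (NPC H3K27me3 replicate 1 or NPC H3K4me3 replicate 2) and 11 (NPC H3K27me3 replicate 2) members above 0. The number below 0 was 8 without NPC H3K27me3 replicate 1, 3 without NPC H3K4me3 replicate 2, 1 without NPC H3K4me3 replicate 1, and 0 without ESC H3K27me3 replicate 2, NPC H3K27me3 replicate 2 or ESC H3K4me3 replicate 1.

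No fall of a PRC2 subunit was called around the locus. None of the 5 nearest windows before the locus or the 5 after it fell for SUZ12, MTF2 or JARID2, and Vaultrc5, before the locus, was higher for SUZ12 in NPC (53.7 ± 6.07 CPM in NPC and 22.4 ± 2.92 CPM in ESC, n = 2 each). SUZ12 in ESC was 21.6 to 31.7 CPM at the windows before and 31.3 to 66.5 CPM at those after. MTF2 in ESC was 17.5 to 28.0 CPM before and 23.8 to 53.1 CPM after. The ESC medians of all windows were 29.8 and 28.6 CPM. Most of these windows had little signal to lose, so no border of the change is read from them. Of 5 non-member windows inside the locus, the 3 predicted genes that overlap Pcdha4, Pcdha6 and Pcdha7 were lower in NPC for SUZ12, as those members were. Slc25a2 and Taf7, which lie between the beta and gamma clusters, did not pass the test for SUZ12 (-0.40 ± 0.33 at Taf7 and 0.02 ± 0.40 at Slc25a2). H3K4me3 fell at all 5 windows inside the locus, where 29.2% of all tested windows fell, and at Taf7 by 0.36 (SE 0.09, adjusted p = 0.000155). The 3 that overlap members share counts with them and are not separate cases.

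Protocadherins outside the clusters mostly gained H3K4me3. Of 12 non-clustered family members, chosen by knowledge of the family, 11 were tested for H3K4me3, and it rose at 9 and fell at none, with a median of 0.998, against -0.02 over all tested windows. Of all tested windows H3K4me3 rose at 26.7% and fell at 29.2%. Pcdh18 had the smallest p, with 98.9 ± 3.35 CPM in NPC and 13.5 ± 1.505 CPM in ESC (2.84 ± 0.11, adjusted p = 1.68e-131). MTF2 fell at 4 of 11 tested, among them Pcdh9 (-1.56 ± 0.35, adjusted p = 0.0012), JARID2 at 2 of 11 (Pcdh7 and Pcdh10) and SUZ12 was lower at 7 of 11. The shares of all tested windows that fell were 8.89% for MTF2, 0.75% for JARID2 and 13.1% for SUZ12. H3K27me3 rose at 1 and fell at 4 of 12, where 22.9% of all tested windows rose and 23.5% fell. Among 14 regulators of the clusters, such as Ctcf, cohesin subunits and DNA methyltransferases, no PRC2 subunit changed past the threshold in the 13 tested, while H3K4me3 rose at 5 and fell at 5. H3K27me3 rose at 8 of the 10 regulators that passed the filter on low counts, where 22.9% of all tested windows rose. Their median was 1.61, against 0.12 over all tested windows. A window can pass that filter through the NPC libraries alone, so this count and median can be shaped by it. Levels were low. Ctcf, which binds the alternate promoters, averaged 17.5 ± 4.98 CPM in NPC and 3.61 ± 3.64 CPM in ESC (n = 2 each). The H3K27me3 medians of all windows were 20.5 CPM in NPC and 20.4 CPM in ESC.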

How the data were processed

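Reads of 22 CUT&RUN libraries were mapped to mm10, and the tools listed are Bowtie2 2.3.4.3 and Picard 2.19, whose role is not stated, per the submitters' processing notes. How reads were counted, and how duplicate and multiply mapped reads were handled, is not given in the sources used here. The authors deposited raw counts per 5000 bp window. Spike-in DNA, named in the labels' protocols, was not used here, so a global change would not be seen.

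Members were matched by symbol. Members, related gene lists and tests were chosen with earlier results of these data known. Each antibody's 4 libraries were tested with edgeR 4.0.16 quasi-likelihood fits (R 4.3.3, limma 3.58.1, TMM scaling, minimum count of 10 by filterByExpr) over all windows, with Benjamini-Hochberg adjustment at 0.05. All 58 members passed the filter for every antibody. The SE is the size of the log2 change divided by the square root of F. Windows were called over IgG in a joint TMM-scaled fit of the 22 libraries, in which the single IgG library was assumed to vary like the other groups. Differences between antibodies were interaction terms over 8 libraries. With 2 libraries per group, p-values and SE reflect the spread between those libraries over windows of similar level as well as at the window itself. The values of 3 counts cover counting error only, since reads carried no molecular identifiers. The members named were the C types, the first and last of each cluster and, per antibody and cluster, the extremes of level and change. Genes named from the related lists mostly had the smallest p of their list for an antibody. Not every such gene was named, and Sox1, whose H3K4me3 levels are given, had it for SUZ12. Any other gene named was called in a short list or chosen after its values were seen. Promoter and protein sequences were not used here. Alternatives included DESeq2 1.42.0, which leaves low windows without an adjusted p. The tests were tried on simulated data.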

Additional observations from a re-analysis of the deposited data

Results flagged for a closer look

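At 14 points the change of a member differed between antibodies by the interaction test (edgeR, adjusted p below 0.05). For JARID2 minus MTF2 the differences were 1.78 at Pcdha3, 2.57 at Pcdha9, 1.58 at Pcdhga2, 1.83 at Pcdhga7, 2.04 at Pcdhga10, 1.71 at Pcdhga12 and 2.12 at Pcdhgc3. These 7 members compare with 2.78% of all windows higher and 0.662% lower, and with 1 library left out there were 0 to 16. All were above 0, that is, the measured JARID2 change of NPC over ESC was higher than the measured MTF2 change. Weaker enrichment by the JARID2 antibody cannot be told apart from this. For H3K4me3 minus H3K27me3 the differences were 1.56 at Pcdhac1, 1.90 at Pcdhb1, 2.103 at Pcdhb6, 1.92 at Pcdhgc3 and 1.46 at Pcdhgc4, and -1.30 at Pcdhga1 and -1.46 at Pcdhga12. Of all windows 17.4% were above 0 and 17.4% below 0 in this test, a larger share than that of the members. With 1 library left out, 2 to 11 members were above 0 and 0 to 8 below 0.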

How the results depend on the processing

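The 24 counts of members stayed within 1.5 times in 135 planned and 6 added refits and moved further in 59. Changes of named members kept their call in 530 planned and 40 added refits, lost it in 47, gained it in 12 and turned sign in 35. The crossed replicate block and the summing of the NPC JARID2 libraries (11 falls) were chosen after seeing the data. Scaling moved the median change of all windows: with library totals it was 0.32 for SUZ12, 0.35 for MTF2 and -0.05 for H3K27me3, and with background TMM factors -0.12, -0.26 and -0.64, and 0.39 for H3K4me3. The median of each cluster stayed below 0 for each antibody under both. Library totals gave 46 H3K27me3 falls, 1 NPC H3K4me3 and 1 ESC JARID2 window above IgG, 3 members higher in JARID2 minus MTF2, and 11 higher and 5 lower in H3K4me3 minus H3K27me3. Background TMM gave 26 H3K4me3 falls. DESeq2 gave 26 MTF2 falls, since the other 15 had no adjusted p there, and 1 JARID2 fall, where 8 of the 11 had no adjusted p and 1 of the 3 with one was kept. A minimum count of 30 left 37 members tested for SUZ12, 10 for JARID2, 30 for MTF2 and 58 for H3K27me3, and gave 31 SUZ12, 4 JARID2 and 22 MTF2 falls and 1 H3K27me3 rise. Non-overlapping windows, which hold 38 members, gave 30 SUZ12, 7 JARID2, 24 MTF2, 8 H3K27me3 and 25 H3K4me3 falls, and above IgG 31 in NPC and 35 in ESC for H3K27me3 and 3 in ESC for H3K4me3. A log2 fold of at least 2 left 1 NPC H3K4me3 window above IgG, and IgG of both cell types gave 45 for SUZ12 in ESC. All 22 libraries gave 2 higher for JARID2 minus MTF2 and 8 lower for H3K4me3 minus H3K27me3.

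Replicate numbers are shared by the groups but not shown to pair the samples, since the correlation of same-numbered deviations was between -0.199 (H3K27me3) and 0.013 (JARID2). With the replicate block, there were 22 MTF2, 7 H3K27me3, 48 SUZ12, 9 JARID2 and 41 H3K4me3 falls, JARID2 minus MTF2 had 1 higher, and H3K4me3 minus H3K27me3 had 3 higher and 0 lower. Crossed pairing gave 41 MTF2 and 19 H3K27me3 falls.

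Leaving out 1 library gave 37 to 48 SUZ12 falls, 3 to 6 JARID2 falls, 15 to 39 MTF2 falls, 4 to 55 H3K27me3 falls with 0 to 1 rise, and 23 to 47 H3K4me3 falls with 3 to 5 rises. It gave 0 to 16 higher for JARID2 minus MTF2, and 2 to 11 higher and 0 to 8 lower for H3K4me3 minus H3K27me3.

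Of all member changes 1 that had passed the test turned sign, H3K4me3 at Pcdhga7 (-0.39, and 0.06 with background TMM). The named changes below turned sign without having passed it. For SUZ12 they were Pcdhgc4 (0.44 at a minimum count of 30) and Pcdhb4 (-0.57 to 0.030 with 1 library left out). For JARID2, leaving out 1 library gave -0.34 to 0.17 at Pcdha6, -0.89 to 0.25 at Pcdhga1, -0.41 to 0.98 at Pcdhga2, -0.0078 to 0.22 at Pcdhgc3, -0.53 to 0.043 at Pcdhgc4 and -0.22 to 0.23 at Pcdhgc5, which was 0.0090 with library totals and 0.012 with the replicate block. For MTF2 it gave -0.40 to 0.24 at Pcdhb1 (0.15 with library totals), -0.17 to 0.29 at Pcdhb8 (-0.30 with background TMM) and -0.87 to 0.046 at Pcdhgc5. For H3K27me3 it gave -1.39 to 0.14 at Pcdhac1, -0.45 to 0.82 at Pcdhac2 (-0.36 with background TMM), -1.16 to 0.088 at Pcdhb21, -1.25 to 0.21 at Pcdhgc3, -0.92 to 0.40 at Pcdhgc4 and -0.46 to 0.39 at Pcdhgc5. A minimum count of 30 gave 0.19 at Pcdhac1, 0.24 at Pcdhb21, 0.054 at Pcdhb22, 0.16 at Pcdhga1, 0.33 at Pcdhgc3 and 0.57 at Pcdhgc4 for H3K27me3, and Pcdhgc5 had -0.17 with library totals, -0.67 with background TMM and -0.00088 with no filter. Where no reason is given, the cause was not tested.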
